A study of Mus musculus with 24 samples.

Results

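The lungs described here are the 8 embryonic day 16 (E16) libraries of a series of 24 libraries of whole mouse lung RNA, taken by their titles. They comprise 4 Sin3a conditional knockout (CKO) lungs and 4 control lungs, each called a biological replicate. CKO lungs were titled Tbx4rtta; tetocre; Sin3a F/F and control lungs Tbx4rtta; tetocre; Sin3a F/+. Pregnant dams received doxycycline from E12, which turns on Cre in this system. The other 16 libraries are CKO and control lungs at P0, when pups are born, and at P3. The titles give P0 lungs the same genotypes as at E16, but name both P3 groups Sin3a F/F, so the P3 groups rest on the words CKO and Control alone. The titles of both E16 groups name both transgenes, so by title the controls can lose the 1 floxed allele that they carry. Strain, sex and number of litters have no entry in the sources used here. The description of each sample carries an identifier that begins with 919 (CKO replicate 3, control replicate 1), 829 (CKO replicate 1, control replicate 2) or 1023 (CKO replicates 2 and 4, control replicates 3 and 4), and the labels do not say what these prefixes mean.

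Sin3a is a scaffold without enzyme activity of its own that holds the class I histone deacetylases Hdac1 and Hdac2 with several small adaptor subunits. The complex is recruited to promoters by DNA-binding factors, among them members of the MXD family that oppose MYC, and it lowers transcription by removing acetyl groups from histones. With doxycycline, Tbx4-rtTA turns on tetO-Cre in the mesenchyme of the developing lung, the source of its fibroblasts, smooth muscle and pericytes. Late in gestation the mouse lung ends its branching phase and its distal tips begin to form alveolar epithelium.

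Totals of the 8 libraries lay between 28.01 and 36.31 M counts, with 21574 to 22813 genes detected. Lung markers were high in both groups. Sftpc, the surfactant protein of distal epithelium, stood at 2001 to 3759 CPM, counts scaled to library size, in CKO lungs and 2649 to 4025 CPM in control lungs. Tbx4, a transcription factor of lung mesenchyme, stood at 187 to 252 CPM in CKO lungs and 194 to 256 CPM in control lungs. Library sizes were adjusted with TMM factors, and fold changes are CKO minus control on the log2 scale, with their standard error (SE). The SE was worked back from each change and the F statistic of its edgeR test. In RNA from whole lungs, fewer cells of a type and less RNA per cell cannot be told apart.

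Of 16606 genes tested with edgeR's quasi-likelihood test, 3 (0.0181%) passed an adjusted p of 0.05 after Benjamini-Hochberg adjustment. All 3 fell in CKO lungs, and 0 rose. At an unadjusted p under 0.05 there were 1091 genes with a higher level in CKO lungs (6.57%) and 658 with a lower level (3.96%), or 10.5% together. DESeq2 called 299 genes (1.8%), 237 higher (1.43%) and 62 lower (0.373%). The 3 called loci were Gm26825, Gm15459 and Gm9008. Each is a near-identical copy of a gene elsewhere, so how the counting divided reads between copy and parent is uncertain.

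Gm15459 is annotated as a processed pseudogene on chromosome 5 (GRCm38, 5781615 to 5783555, minus strand). Gm26825 is annotated as a lincRNA on the opposite strand of the same segment (5781530 to 5783636). Both match Hspa8, the constitutive HSC70 chaperone on chromosome 9 (40800984 to 40810087). Aligned to the Hspa8-201 transcript, the 1941 bases of Gm15459 matched at 99.74% with 5 mismatches, and the longest identical run was 672 bases. The 1937 aligned bases of Gm26825 matched the reverse complement at 99.74%, also with 5 mismatches. Gm9008 is annotated as a protein-coding gene on chromosome 6 (76495432 to 76497784, minus strand) and matched the transcript of Rnf26, a RING finger ubiquitin ligase on chromosome 9 (44095631 to 44113517), at 99.27% over 2317 bases with 17 mismatches. These stretches of 60 bases, aligned to coding sequence of the parent, were chosen because they hold the most differences of any such window, and the capitals mark the bases at which copy and parent differ. The sequences are from the GENCODE M21 transcripts of GRCm38, and the lines give the copy before its parent.
Gm15459 (chr5:5783442-5783501, minus strand): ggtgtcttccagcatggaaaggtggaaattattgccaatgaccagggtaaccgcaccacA
Hspa8 (chr9:40801977-40802036, plus strand): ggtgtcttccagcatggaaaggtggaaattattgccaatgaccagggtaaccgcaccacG
Gm9008 (chr6:76497110-76497169, minus strand): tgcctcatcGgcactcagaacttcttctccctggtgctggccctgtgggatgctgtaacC
Rnf26 (chr9:44112428-44112487, minus strand): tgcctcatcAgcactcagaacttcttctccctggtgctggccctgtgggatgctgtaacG

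Gm26825 had 2.70, 3.88, 4.73 and 3.15 CPM in CKO lungs, against 201, 205, 217 and 205 CPM in control lungs. Every CKO library lay far below every control library, and the log2 fold change was -5.84 ± 0.17 (adjusted p = 3.66e-07, edgeR). Gm15459 had 20.6, 23.1, 23.96 and 21.5 CPM in CKO lungs, against 151, 149.8, 158 and 158 CPM in control lungs, a change of -2.79 ± 0.08 with the same adjusted p by edgeR. In both, the 4 CKO lungs lay close together, and so did the 4 controls. Gm9008 was almost undetected in CKO lungs, with 1, 0, 1 and 0 counts, and had 261, 227, 175 and 157 counts in control lungs (adjusted p = 0.000102, edgeR). Scaled to the total counts of each group, the ratio of its counts, CKO over control, was 0.00247, with an exact 95% interval of 0.000299 to 0.00897 that covers counting error only. All 3 loci passed the threshold in each of the 20 alternative analyses of these libraries, with changes of -5.99 to -5.72 for Gm26825 and -2.83 to -2.75 for Gm15459. At P0, where 7 of 17198 genes passed (0.0407%; 2 higher, 0.0116%, and 5 lower, 0.0291%), all 3 fell in CKO lungs as well (adjusted p = 6.08e-06 for Gm26825, 0.000190 for Gm15459 and 0.00135 for Gm9008, edgeR). At P3, where 2 genes passed (0.0117%, both lower), Gm9008 was one of them (adjusted p = 0.00298, edgeR), and Gm26825 and Gm15459 had changes of -5.30 ± 1.25 and -2.47 ± 0.58 that did not (adjusted p = 0.179 and 0.171, edgeR).

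The parents did not pass the test. Hspa8 had 2129, 2651, 2721 and 2768 CPM in CKO lungs, against 2097, 2045, 2162 and 2098 CPM in control lungs, a change of 0.29 ± 0.09 (adjusted p = 0.337, edgeR). CKO replicates 2 to 4 lay above all controls, and CKO replicate 1 lay among them. Summed with Gm26825 and Gm15459, the level was 2593 ± 297 CPM in CKO lungs and 2462 ± 57.2 CPM in control lungs (SD, n = 4 each; two-sided exact permutation p = 0.486, smallest possible 0.0286). Rnf26 had 58.1, 61.1, 68.6 and 61.9 CPM in CKO lungs, against 61.6, 59.1, 46.0 and 39.9 CPM in control lungs (0.27 ± 0.14, adjusted p = 0.535, edgeR). Summed with Gm9008, it was 62.5 ± 4.46 CPM in CKO lungs and 58.1 ± 11.7 CPM in control lungs (SD, n = 4 each; two-sided exact permutation p = 0.486). Hspa8 lies 16.3 Mb and Rnf26 13 Mb from Sin3a on the same chromosome.

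**Figure D1:**
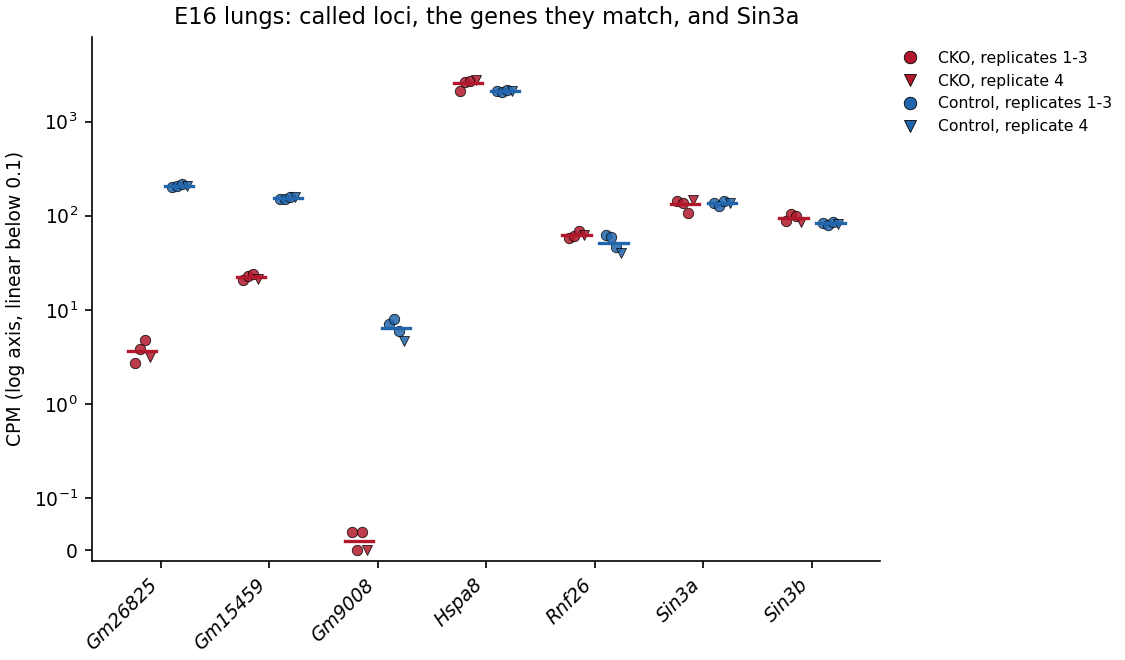
CPM of the called loci, their parent genes, Sin3a and Sin3b in each E16 library (log axis, linear below 0.1), with bars at the group means and triangles for replicate 4 of each group. CKO values of Gm26825 (2.70 to 4.73 CPM), Gm15459 (20.6 to 23.96 CPM) and Gm9008 lie below all control values, while those of Hspa8, Rnf26, Sin3a and Sin3b overlap with controls.

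The targeted gene was not lower in CKO lungs as a whole-gene count. Sin3a (chromosome 9, 57072040 to 57128366) had 142, 137, 107 and 146 CPM in CKO lungs, against 138, 127, 144 and 136 CPM in control lungs. The groups overlapped fully, and the change was -0.03 ± 0.10 (adjusted p = 0.956, edgeR). CKO replicate 3 was the lowest library, and without it the sign turned to 0.05. A count over all exons includes those not flanked by loxP sites and all cells without Cre, so it does not check the genotype. Its paralog Sin3b, which scaffolds a related complex, had 87.1, 103, 99.1 and 84.8 CPM in CKO lungs, against 84.7, 79.1, 86.0 and 81.4 CPM in control lungs (0.18 ± 0.09, adjusted p = 0.514, edgeR).

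The libraries differed in ways other than genotype. Xist, expressed from the inactive X chromosome of females, had 2937, 1257, 1035 and 1447 CPM in CKO lungs, against 0.493, 0.556, 0.958 and 2957 CPM in control lungs. The Y-linked genes Ddx3y, Uty, Kdm5d and Eif2s3y were present in control replicates 1 to 3 (36.4 to 96.3 CPM) and at 0 to 0.0355 CPM in the 4 CKO libraries and control replicate 4. Sex thus moved with genotype in all but 1 library. The first principal component (36.4% of variance) did not follow genotype. Control replicate 4 scored 42.5 on it and the other controls -18.7 to 10.4. CKO replicates 1 to 4 scored 41.3, -8, -52.1 and -4.4. What this axis reflects was not tested. CKO replicate 4 stood apart from the other CKO lungs on the second component (18.1% of variance). It scored 12.4 there, against -37.2 to -18.1 in the other CKO libraries and 12.6 to 20.3 in controls. At the 3 called loci it had the levels of the other CKO lungs. Markers of heart and skeletal muscle had a mean of 4.24 log2 CPM over 15 markers in CKO replicate 1 and 1.86 to 2.21 in the other CKO lungs, against 4.41 in control replicate 2 and 2.21 to 2.95 in the other controls. The part of sex and of other tissue in the results was not tested beyond the fits given beside them.

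Of the libraries left out in turn, CKO replicate 4 moved the number of calls most. Without it edgeR called 188 of 16822 genes (1.12%), 120 higher (0.713%) and 68 lower (0.404%), and 8.2% and 6.71% were higher and lower at an unadjusted p under 0.05. Of these 188 genes, 132 were also called by DESeq2 with all 8 libraries. In 178 of the 188, CKO replicate 4 lay nearer the control mean than the mean of the other CKO libraries. Leaving it out widens the gap between the groups at such genes. Adjusted p values given without it are therefore a description and not support for a gene. Without control replicate 4, the one control with Xist, edgeR called 10 of 16758 genes (0.0597%), 2 higher (0.0119%) and 8 lower (0.0477%), and 4.95% and 3.38% were higher and lower at an unadjusted p under 0.05. The 2 higher were Xist and the X-linked gene Eif2s3x, and the 8 lower were the 3 loci, the 4 Y-linked genes and the predicted locus Gm29650. With Xist as a covariate, which leaves the estimate resting on control replicate 4, the 3 loci and the predicted locus Gm1821 passed, the last with a higher level in CKO lungs.

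The other genes are described by rank. Protein-coding genes were ranked by unadjusted p among those with a mean log2 CPM of at least 1, a change of at least 0.3 in size and no overlap between CKO and control libraries, and the first 15 in each direction were taken. Over all genes tested, CKO libraries lay above all controls for 712 (4.29%) and below all controls for 379 (2.28%). Apart from Gm9008, none of the 30 passed over all genes (adjusted p = 0.160 to 0.309, edgeR), 15 of 15 higher and 15 of 15 lower genes were called by DESeq2, and 12 and 8 of them passed edgeR without CKO replicate 4. The rule used these libraries, so the E16 values of these genes are a description.

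Shisa3, a membrane adaptor known to hold back WNT and FGF receptors, ranked first among higher genes (chromosome 5, 67607882 to 67623552). It had 15.5, 15.9, 17.0 and 6.88 CPM in CKO lungs, against 3.56, 2.88, 2.60 and 3.95 CPM in control lungs. CKO replicate 4 lay between the groups, and the change was 2.09 ± 0.29 (adjusted p = 0.160, edgeR), or 2.31 ± 0.16 without that library (adjusted p = 0.00209, edgeR). Cyp46a1, the cholesterol 24-hydroxylase best known in neurons, had 16.3, 30.8, 26.98 and 9.65 CPM in CKO lungs, against 6.30, 6.29, 5.88 and 4.46 CPM in control lungs. The CKO values spread widely, and the change was 1.87 ± 0.33 (adjusted p = 0.309, edgeR), or 2.11 ± 0.23 without CKO replicate 4 (adjusted p = 0.0145, edgeR).

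RNA-processing enzymes were among the higher genes. Rpp40, a subunit of ribonuclease P, had 21.7, 19.4, 21.5 and 10.5 CPM in CKO lungs, against 8.05, 7.99, 7.77 and 7.83 CPM in control lungs. The 4 controls lay within 0.29 CPM of each other, and the change was 1.21 ± 0.21 (1.40 ± 0.09 without CKO replicate 4, adjusted p = 0.00183, edgeR). Pus7, a pseudouridine synthase, had 91.3, 92.3, 81.6 and 69.6 CPM in CKO lungs, against 57.7, 58.3, 58.6 and 55.4 CPM in control lungs (0.54 ± 0.10).

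Orc1 and Chek2 have roles in DNA replication and its checkpoint. Orc1, the largest subunit of the origin recognition complex, had 18.5, 19.2, 17.6 and 18.4 CPM in CKO lungs, against 12.2, 12.3, 12.9 and 12.8 CPM in control lungs. In this gene CKO replicate 4 lay with the other CKO libraries, and the change was 0.55 ± 0.08 (adjusted p = 0.277, edgeR; 0.0410 without CKO replicate 4). Chek2, a kinase of the DNA damage response, had 24.1, 25.3, 26.8 and 23.2 CPM in CKO lungs, against 18.9, 17.9, 17.7 and 18.1 CPM in control lungs (0.45 ± 0.08). Usp28, a deubiquitinase that acts in the same response and on MYC, had 92.2, 90.5, 76.3 and 66.8 CPM in CKO lungs, against 52.3, 52.4, 56.0 and 56.9 CPM in control lungs (0.58 ± 0.11).

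Hsph1, the HSP110 co-chaperone of HSC70, had 123, 139, 131 and 107 CPM in CKO lungs, against 85.2, 75.8, 84.8 and 82.5 CPM in control lungs (0.61 ± 0.09, adjusted p = 0.284, edgeR). Kyat3, an aminotransferase of kynurenine, had 19.9, 20.8, 20.3 and 13.2 CPM in CKO lungs, against 10.8, 11.1, 11.1 and 10.2 CPM in control lungs (0.78 ± 0.15). The other higher genes were Gsto1, a glutathione transferase (0.92 ± 0.17), the predicted gene AI429214 (0.93 ± 0.17), the mitochondrial protein gene Fam210b (0.64 ± 0.12), the protease gene Cym (0.57 ± 0.10), the BTB protein gene Gmcl1 (0.50 ± 0.10) and the X-linked gene Pbdc1 (0.57 ± 0.11). In control replicate 4, the control with Xist, Pbdc1 had the highest control value, 47.8 CPM.

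Some of the lower genes encode secreted or matrix proteins. Eln, the tropoelastin of elastic fibres, had 1263, 974.5, 1004 and 1299.7 CPM in CKO lungs, against 1534, 1492, 1566 and 1586 CPM in control lungs. All CKO libraries lay below all controls, with CKO replicates 1 and 4 nearest to them, and the change was -0.44 ± 0.10 (adjusted p = 0.309, edgeR). Adamtsl4, a secreted protein that binds fibrillin, had 4.12, 3.24, 4.16 and 4.45 CPM in CKO lungs, against 6.33, 6.22, 6.60 and 5.86 CPM in control lungs (-0.65 ± 0.14). Olfml3, a secreted olfactomedin-domain protein, had 139, 110.5, 116 and 153 CPM in CKO lungs, against 162, 202, 192 and 189 CPM in control lungs (-0.53 ± 0.12). Lrrc32, which holds latent TGF-beta at the cell surface, had 6.30 to 8.23 CPM in CKO lungs and 9.27 to 13.1 CPM in control lungs (-0.59 ± 0.14).

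Agt, the angiotensin precursor, had 2.39, 2.73, 3.38 and 6.09 CPM in CKO lungs, against 8.49, 6.60, 9.24 and 9.36 CPM in control lungs. CKO replicate 4 came closest to the controls, and the change was -1.21 ± 0.29 (-1.57 ± 0.19 without that library, adjusted p = 0.0222, edgeR). Ndrg2, linked to growth arrest and differentiation, had 30.2, 21.6, 24.99 and 49.8 CPM in CKO lungs, against 50.8, 62.1, 68.9 and 81.2 CPM in control lungs. CKO replicate 4 and control replicate 1 almost met, and the change was -1.06 ± 0.26 (-1.36 ± 0.18 without CKO replicate 4, adjusted p = 0.0238, edgeR).

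Pdpn, a membrane glycoprotein of alveolar type 1 cells, mesothelium and lymphatic vessels, had 32.6, 36.1, 35.2 and 36.9 CPM in CKO lungs, against 42.8, 45.5, 44.1 and 44.7 CPM in control lungs. It was among the most even of the lower genes within each group, and CKO replicate 4 lay with the other CKO libraries (-0.33 ± 0.07). Pts, an enzyme of tetrahydrobiopterin synthesis, had 14.1, 14.8, 15.9 and 16.3 CPM in CKO lungs, against 21.6, 21.2, 22.2 and 25.4 CPM in control lungs (-0.57 ± 0.10, adjusted p = 0.309, edgeR; 0.0463 without CKO replicate 4). The remaining lower genes were Cacna1g, a T-type calcium channel subunit (-0.59 ± 0.13), Fxyd1, a regulator of the sodium pump (-0.76 ± 0.17), the transporter gene Slc47a1 (-0.96 ± 0.23), the membrane protein gene Tmem150c (-0.82 ± 0.19), the oxidoreductase gene Pyroxd2 (-0.55 ± 0.12) and 2310030G06Rik (-0.58 ± 0.13).

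**Figure D2:**
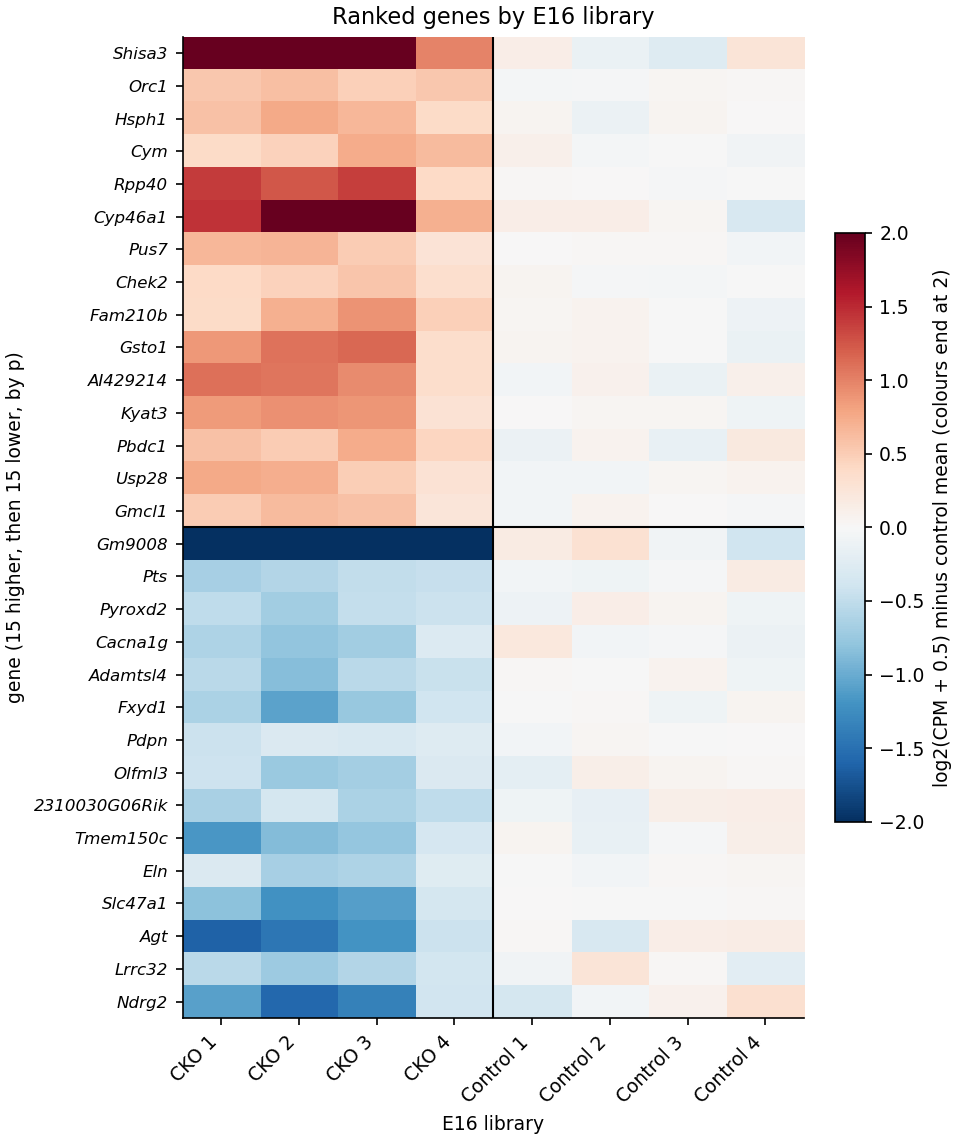
Ranked genes (15 higher above, 15 lower below) by E16 library, as log2(CPM + 0.5) minus the control mean, with CKO libraries left of controls and colours ending at 2. CKO replicate 4 is paler than the other CKO libraries for most genes, such as Shisa3 (6.88 CPM) and Rpp40 (10.5 CPM), and as dark for Gm9008.

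The same genes were examined in the 16 later libraries, which the ranking did not use. Of the 15 higher genes, 14 had a positive change at P0 (46.7% of all genes did), 8 of them at an unadjusted p under 0.05 (3.46% of all genes at P0 were higher at that p), and Shisa3 passed over all genes (2.05 ± 0.27, adjusted p = 0.0425, edgeR). At P3, 14 of 14 tested had a positive change (47.4% of all genes did) and 13 were at an unadjusted p under 0.05 (8.28% of all genes), and 0 passed over all genes. Cyp46a1 had a change of 2.89 ± 0.56 at P0 and 2.67 ± 0.39 at P3, Rpp40 1.49 ± 0.24 and 1.42 ± 0.31, and Pus7 0.91 ± 0.19 and 0.89 ± 0.20. The exception at P0 was Gsto1, at -0.16 ± 0.49.

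Of the 15 lower genes, 15 had a negative change at P0, 8 of them at an unadjusted p under 0.05 (2.98% of all genes), and 14 had one at P3, 6 of them at that p (7.11% of all genes). Gm9008 alone passed over all genes at each stage. Pts had a change of -1.20 ± 0.21 at P0 and -0.78 ± 0.12 at P3. Ndrg2 had -1.11 ± 0.31 at P0 and -0.25 ± 0.14 at P3, and Slc47a1 had -0.14 ± 0.39 and -0.09 ± 0.15. Whether the E16 change differed from that at P0 or P3 was tested as an interaction over 18415 genes, and edgeR called 0 for either stage, with 515 (2.8%) and 212 (1.15%) at an unadjusted p under 0.05. A p that misses the threshold does not show that the stages were alike.

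**Figure D3:**
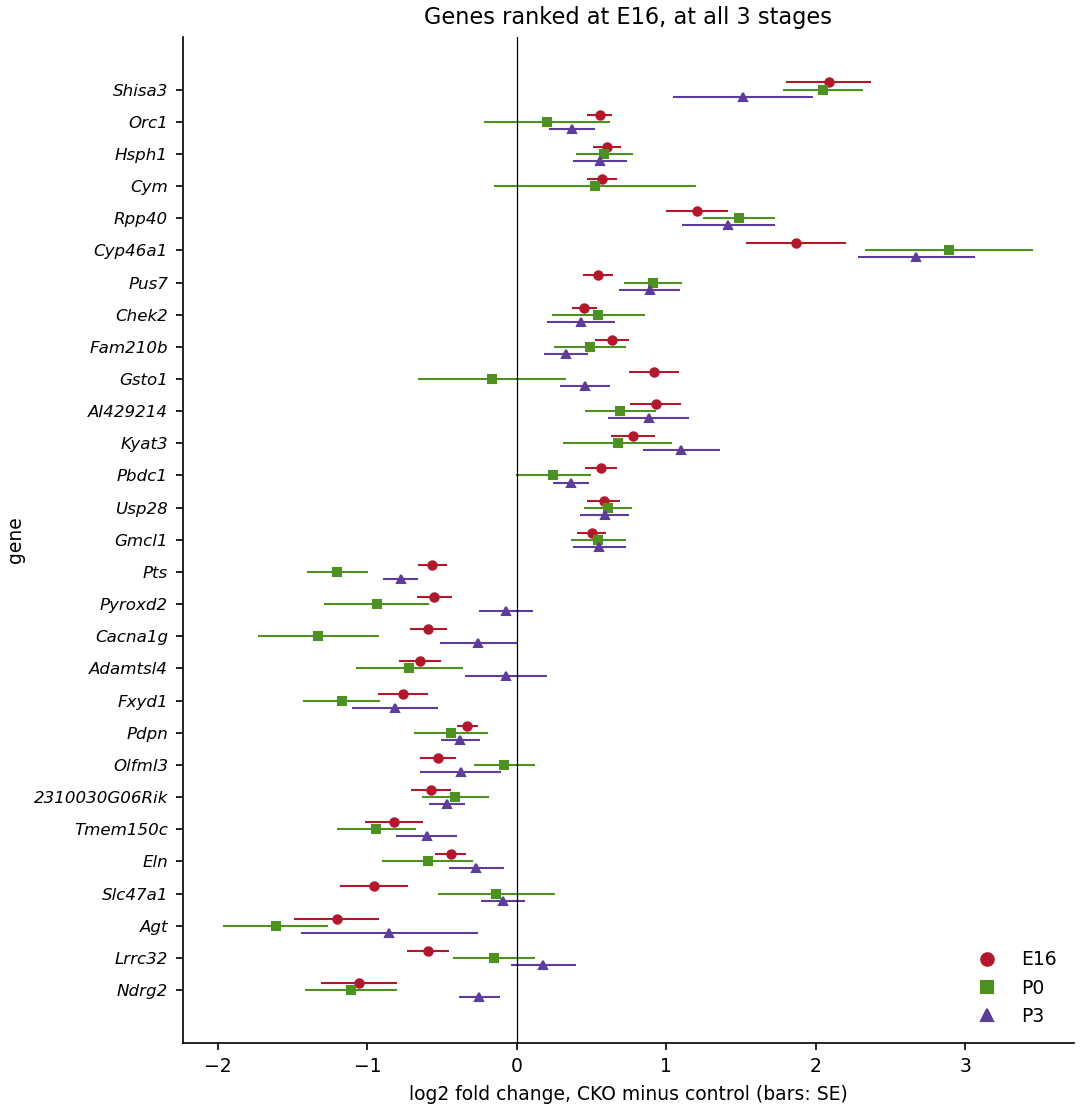
Log2 fold changes, CKO minus control with SE bars, of the genes ranked at E16 in the 8 libraries of each stage (Gm9008 is left out, since its change is off the scale). Cyp46a1 lies at 1.87, 2.89 and 2.67 at E16, P0 and P3, and Slc47a1 at -0.96, -0.14 and -0.09.

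Gene lists were set beside all genes, whose median change was -0.01 and of which 48.1% had a positive change. None of the 845 tested genes of 40 lists passed edgeR over all genes. Counts at an unadjusted p under 0.05 are therefore given, to be read against 6.57% of all genes higher and 3.96% lower, and no set test was run.

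Partners of Sin3a leaned higher. Of 26 subunits of SIN3 complexes and class I deacetylases, 20 had a positive change (median 0.10), with 6 higher and 0 lower at an unadjusted p under 0.05, and within each of the 3 prefixes the median was positive (0.13 to 0.17). Without control replicate 4 the count was 3 of 26, and without CKO replicate 4 it was 7. Ing2, which reads methylated histone H3 for the complex, had 32.9, 40.1, 40.2 and 25.8 CPM in CKO lungs, against 21.2, 20.8, 21.9 and 20.6 CPM in control lungs. The groups did not overlap, and the change was 0.72 ± 0.14 (adjusted p = 0.309, edgeR; 0.0189 without CKO replicate 4). The adaptor subunits Sap30 and Sap30l had changes of 0.46 ± 0.13 and 0.37 ± 0.13.

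Growth genes leaned higher as well. Of 34 MYC targets and ribosome biogenesis factors, 31 had a positive change (median 0.20), and 14 were higher and 0 lower at an unadjusted p under 0.05, or 41.2% of them. The mean level was 6.14, 6.18, 6.29 and 6.03 log2 CPM in CKO lungs, against 6.06, 6.01, 5.83 and 5.71 log2 CPM in control lungs, so that CKO replicate 4 lay below control replicate 1. Rrp12, which exports ribosomal subunits from the nucleus, had 34.2, 36.3, 34.1 and 20.4 CPM in CKO lungs, against 22.9, 17.1, 15.1 and 14.5 CPM in control lungs (0.84 ± 0.21). Nop16 and Nop14, nucleolar assembly factors, had changes of 0.50 ± 0.11 and 0.35 ± 0.09. Of 34 cytosolic ribosomal proteins, 33 had a positive change (median 0.15) but 2 were at an unadjusted p under 0.05 (5 without CKO replicate 4), and within prefix 829 their median was -0.06. Without control replicate 4 the count for MYC targets and biogenesis factors was 8 of 34, and without CKO replicate 4 it was 14. With Xist as a covariate it was 19.

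DNA replication genes leaned higher too. Of 36, 34 had a positive change (median 0.22), 15 were higher at an unadjusted p under 0.05 and 11 (30.6%, against 4.29% of all genes) lay above all controls in every CKO library. The mean level was 6.22, 6.20, 6.36 and 6.19 log2 CPM in CKO lungs, against 6.12, 6.14, 5.98 and 5.87 log2 CPM in control lungs, and the groups did not overlap. Mean levels of the SIN3 list did not overlap either (6.461 to 6.602 in CKO lungs, 6.372 to 6.458 in controls). Nor did those of the G1 genes described next (5.925 to 6.061 in CKO lungs, 5.824 to 5.888 in controls). Chaf1b, a histone chaperone that loads new nucleosomes, had 69.0, 77.9, 76.8 and 55.9 CPM in CKO lungs, against 46.5, 51.3, 43.6 and 35.1 CPM in control lungs (0.66 ± 0.14). Gins3, a part of the replicative helicase, had a change of 0.35 ± 0.11. Of 30 mitosis genes, 24 had a positive change, with a median of 0.08, and 0 were at an unadjusted p under 0.05. Without control replicate 4, 8 replication genes were higher at that p, and without CKO replicate 4, 14 were. With Xist as a covariate, 22 were.

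A list of 20 G1 genes held cyclins, cyclin-dependent kinases, their inhibitors, E2F transcription factors and pocket proteins. Of these, 12 had a positive and 8 a negative change (median 0.08). At an unadjusted p under 0.05, 6 were higher and 0 lower (4 higher without control replicate 4). Ccne1, the cyclin that starts S phase, had 43.8, 54.2, 66.5 and 33.5 CPM in CKO lungs, against 28.5, 28.2, 24.2 and 18.3 CPM in control lungs (1.00 ± 0.22, adjusted p = 0.309, edgeR; 0.0446 without CKO replicate 4). The kinase inhibitor Cdkn2d (0.49 ± 0.13) and the pocket protein Rbl2 (0.35 ± 0.11), which hold cells in G1, were among those higher too. Of 29 p53 targets, 19 had a positive change (median 0.12), with 6 higher and 0 lower at that p. Eda2r, a death receptor induced by p53, had 7.31, 4.77, 4.66 and 1.86 CPM in CKO lungs, against 1.97, 1.32, 1.44 and 1.37 CPM in control lungs. CKO replicate 4 lay within the control range (1.6 ± 0.37, adjusted p = 0.309, edgeR; 0.0228 without that library). Aen, an exonuclease of apoptosis, and Ccng1, cyclin G1, had changes of 0.80 ± 0.18 and 0.45 ± 0.10.

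**Figure D4:**
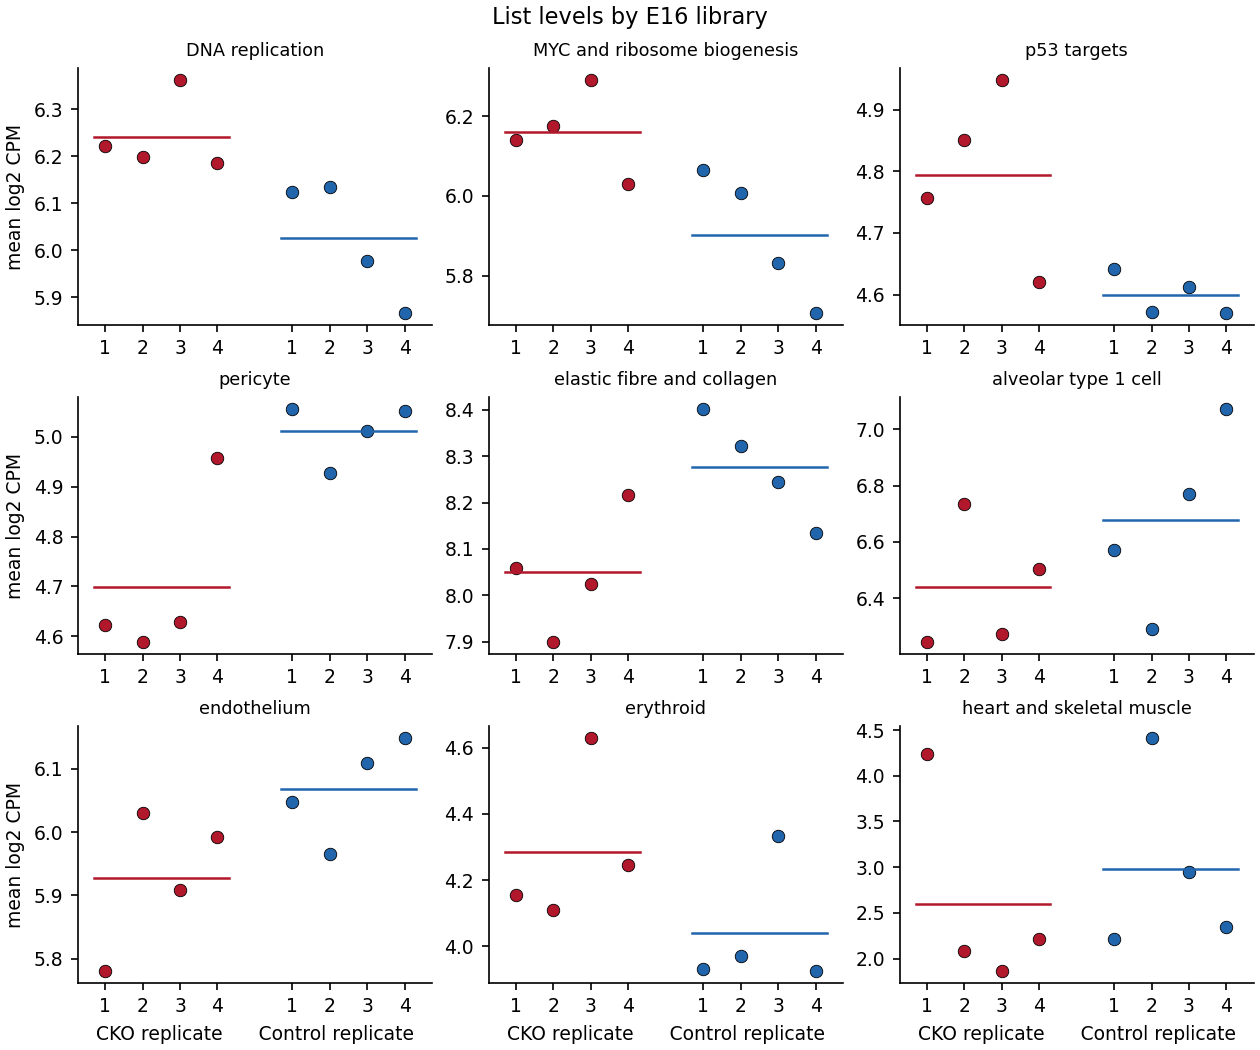
Mean log2 CPM over the tested members of 9 lists in each E16 library, with CKO replicates left of control replicates and a bar at each group mean (the axes do not start at 0). DNA replication separates the groups (6.19 to 6.36 in CKO lungs, 5.87 to 6.14 in controls), CKO replicate 4 lies apart in the pericyte panel at 4.96, and muscle markers are high in CKO replicate 1 and control replicate 2.

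Markers of pericytes, alveolar fibroblasts and smooth muscle leaned lower. All 14 tested pericyte markers had a negative change (median -0.24), but 1 was at an unadjusted p under 0.05. Their mean level was 4.62, 4.59, 4.63 and 4.96 log2 CPM in CKO lungs, against 5.06, 4.93, 5.01 and 5.05 log2 CPM in control lungs, and without CKO replicate 4, which lay within the control range, 7 of 14 were at that p. Cspg4, the NG2 proteoglycan, had 35.0, 42.4, 36.2 and 51.4 CPM in CKO lungs, against 64.7, 49.2, 52.6 and 44.6 CPM in control lungs (-0.36 ± 0.15). Rgs5 and Cox4i2, other pericyte genes, had changes of -0.53 ± 0.25 and -0.37 ± 0.18.

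Of 28 alveolar fibroblast and lipofibroblast markers, 23 had a negative change (median -0.22), with 5 lower and 2 higher at an unadjusted p under 0.05. The lower count was 8 without CKO replicate 4 and 3 without control replicate 4. Mfap4, a microfibril protein, had 581, 882, 742 and 1111 CPM in CKO lungs, against 1338, 1046, 1311 and 1545 CPM in control lungs (-0.66 ± 0.19, adjusted p = 0.330, edgeR). CKO replicate 4 lay above the lowest control. Rarres2, the chemokine-like protein chemerin, had 30.6, 17.7, 23.2 and 53.3 CPM in CKO lungs, against 52.1, 57.8, 58.4 and 62.8 CPM in control lungs (-0.89 ± 0.29, adjusted p = 0.352, edgeR; 0.0258 without CKO replicate 4). Bmp3, also of this list, went the other way, with 44.6, 42.3, 37.1 and 25.4 CPM in CKO lungs, against 26.7, 25.8, 24.3 and 27.5 CPM in control lungs (0.52 ± 0.16; 0.0267 adjusted p without CKO replicate 4, edgeR).

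Of 25 smooth muscle and myofibroblast markers, 23 had a negative change (median -0.14), and 3 were lower at an unadjusted p under 0.05: Fgf18 (-0.44 ± 0.16), Mylk, the myosin light chain kinase (-0.30 ± 0.11), and Lgr6 (-0.21 ± 0.09). Without control replicate 4 the count was 1 of 25. Adventitial fibroblast markers split, with 9 positive and 10 negative changes of 19 (median -0.11, from -1.12 to 0.87). Of these, 4 were lower and 1 higher at that p. Clec3b, tetranectin, had 8.34, 6.02, 3.27 and 16.1 CPM in CKO lungs, against 18.5, 16.7, 18.4 and 19.8 CPM in control lungs (-1.12 ± 0.39), and Scara5 and Gsn had changes of -0.46 ± 0.12 and -0.28 ± 0.10. Mesenchymal transcription factors did not lean, with 15 of 30 on each side of 0 and a median of -0.01. Among them Meox2 had a positive change (0.24 ± 0.09) and Foxp1 and Meox1 negative ones (-0.19 ± 0.08 and -0.35 ± 0.14).

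Of 31 elastic fibre and collagen genes, 26 had a negative change (median -0.18), and 10 (32.3%) were lower and 0 higher at an unadjusted p under 0.05. The mean level was 8.06, 7.90, 8.02 and 8.22 log2 CPM in CKO lungs, against 8.402, 8.32, 8.24 and 8.13 log2 CPM in control lungs, so that CKO replicate 4 lay above control replicate 4. Within prefixes the median was -0.10 to -0.32. Eln and Mfap4, given above, led the list, and Col6a3, a chain of the microfibrillar collagen VI, had 469, 377, 249 and 611 CPM in CKO lungs, against 779, 534, 846 and 891 CPM in control lungs (-0.84 ± 0.26). Without control replicate 4 the count was 12 of 31, and with Xist as a covariate it was 3 lower and 3 higher.

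Alveolar epithelial and endothelial genes leaned lower, with few members at an unadjusted p under 0.05 in the fit by genotype alone. All 22 alveolar type 2 markers (median -0.32) and 20 of 21 alveolar type 1 markers (median -0.24) had a negative change, and 1 of each list was at an unadjusted p under 0.05. Type 1 levels were 6.24, 6.73, 6.27 and 6.50 log2 CPM in CKO lungs, against 6.57, 6.29, 6.77 and 7.07 log2 CPM in control lungs. Without control replicate 4, the highest, the median was -0.08 for type 1 and -0.14 for type 2 markers, with 5 of 21 and 4 of 22 positive. With Xist as a covariate, a fit that rests on control replicate 4, the medians were -0.43 and -0.52. In that fit 9 of 21 type 1 and 6 of 22 type 2 markers were lower at an unadjusted p under 0.05. Other epithelial lists differed: 20 of 24 distal tip and epithelial transcription factors had a negative change (median -0.08) and 12 of 20 secretory, ciliated and neuroendocrine airway markers did (median -0.04), with 0 and 1 lower at that p. Sftpb, surfactant protein B, had 151, 320, 242 and 218 CPM in CKO lungs, against 293, 257, 322 and 320 CPM in control lungs (-0.36 ± 0.20, adjusted p = 0.567, edgeR), with wide overlap. Lpcat1, an enzyme of surfactant lipid, and Rab27a, of secretory vesicles, had changes of -0.21 ± 0.12 and -0.25 ± 0.10. Gprc5a and Col4a4 of the type 1 list had changes of -0.26 ± 0.13 and -0.35 ± 0.19. All 30 endothelial markers had a negative change (median -0.13), with 1 lower at that p, S1pr1, a lipid receptor of vessels (-0.24 ± 0.10). Without control replicate 4, 6 of 30 were positive (median -0.12) and 0 were lower at that p. Of 12 lymphatic endothelial markers, 7 had a negative and 5 a positive change (median -0.11), with 2 lower at that p.

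Of 21 erythroid genes, 16 had a positive change (median 0.33), and 3 were higher at an unadjusted p under 0.05, or 1 without control replicate 4. The embryonic globin Hbb-y had 11.2, 6.80, 25.2 and 13.9 CPM in CKO lungs, against 6.55, 4.80, 6.16 and 4.46 CPM in control lungs (1.38 ± 0.35, adjusted p = 0.309, edgeR). The groups did not overlap, and CKO replicate 3 was highest. Summed erythroid levels ran from 6765 to 16850 CPM in CKO lungs and from 6278 to 9478 CPM in control lungs, and the list median within prefix 919, which holds CKO replicate 3, was 0.78, against 0.05 within 1023. Macrophage markers split evenly, 13 of 26 on each side. At an unadjusted p under 0.05, 2 were higher (7.69%, near the 6.57% of all genes) and 0 lower. These were Ms4a7 (1.18 ± 0.31) and Ly86 (0.91 ± 0.25), surface and secreted proteins of macrophages. Ms4a7 was low, with means of 1.07 CPM in CKO lungs and 0.469 CPM in control lungs. Ly86 in CKO replicate 4, at 4.61 CPM, lay within the control range of 4.07 to 5.30 CPM. Trem2 had a change of 0.44 ± 0.20.

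Signalling lists differed in their lean. FGF pathway genes had 16 negative changes of 21 (median -0.14), with 3 lower at an unadjusted p under 0.05, or 14.3%. Without CKO replicate 4, 7 of 21 were lower at that p (median -0.20), and with Xist as a covariate 0 were. Fgf10, the mesenchymal ligand that drives branching, had 35.9, 32.6, 33.8 and 48.5 CPM in CKO lungs, against 45.3, 45.5, 48.1 and 48.3 CPM in control lungs. CKO replicate 4 was the highest of all 8 libraries, and the change was -0.31 ± 0.13 (adjusted p = 0.427, edgeR; -0.46 ± 0.08 and 0.0463 without that library). Spry1, a feedback inhibitor of FGF signals, had a change of -0.35 ± 0.15. Of 36 WNT genes, 14 had a positive change, with 1 higher and 1 lower at that p (3 lower without CKO replicate 4). Shisa3 was the higher one. Notum, a secreted WNT deacylase, did not reach that p. It had 0.935, 1.53, 2.42 and 4.32 CPM in CKO lungs, against 4.44, 3.20, 4.65 and 4.93 CPM in control lungs (-0.90 ± 0.41). Of 30 BMP and TGF-beta genes, 2 were higher (6.67%) and 3 lower (10%) at that p (5 lower without CKO replicate 4). Bmp3, given above, was among the higher. Tgfbi, a secreted target, had 179, 200.3, 234 and 262 CPM in CKO lungs, against 314, 274, 327 and 293 CPM in control lungs, with no overlap (-0.46 ± 0.12, adjusted p = 0.309, edgeR). The receptor Tgfbr2 had a change of -0.24 ± 0.10.

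In metabolism and stress lists, members went both ways. Of 23 glycolysis and hypoxia genes, 13 had a positive change (median 0.02), with 4 higher and 1 lower at an unadjusted p under 0.05 (2 lower without CKO replicate 4). Hk2, a hexokinase, had 64.2, 78.2, 60.1 and 48.3 CPM in CKO lungs, against 44.6, 36.7, 43.5 and 41.8 CPM in control lungs (0.59 ± 0.14, adjusted p = 0.309, edgeR; 0.0446 without CKO replicate 4), and Aldoa and Pgk1 of glycolysis had changes of 0.29 ± 0.12 and 0.22 ± 0.08. The 1 lower gene, named after its values were seen, was Pkm, a pyruvate kinase (-0.23 ± 0.10). ATF4 targets had 13 positive and 8 negative changes of 21 (median 0.12). At an unadjusted p under 0.05, 4 were higher and 0 lower (2 lower without CKO replicate 4). The higher included Sesn2, an amino acid sensor (0.69 ± 0.21), Mthfd2, of mitochondrial folate metabolism (0.45 ± 0.14), and Slc7a5, an amino acid transporter (0.57 ± 0.18). Immediate early and heat shock genes had 5 higher and 2 lower of 22 at an unadjusted p under 0.05 (3 higher without control replicate 4). The 5 higher were all heat shock genes, among them Hspa8, whose sum with its copies is given above. The lower were of both kinds. The chaperonin Hspe1 had 93.5, 102, 127 and 79.1 CPM in CKO lungs, against 71.4, 74.4, 64.0 and 59.98 CPM in control lungs (0.57 ± 0.14). Of 22 cholesterol genes, 2 were higher and 2 lower at an unadjusted p under 0.05, and 1 was higher and 1 lower when either CKO replicate 4 or control replicate 4 was left out. The lower were the synthesis genes Idi1 and Lss (-0.30 ± 0.10 and -0.22 ± 0.09), and the higher were Cyp46a1 and, named after its values were seen, the synthesis gene Nsdhl (0.29 ± 0.13). Genes within 25 Mb of Sin3a, where Hspa8 and Rnf26 lie, were higher in 28 and lower in 28 of 420 tested at an unadjusted p under 0.05. These shares, 6.67% each, stand against 6.57% of all genes higher and 3.96% lower. On the rest of chromosome 9, 22 of 551 were higher (3.99%) and 27 lower (4.9%). CKO and control libraries did not overlap for 9.52% of genes in the window. The share was 6.53% on the rest of chromosome 9 and 6.57% of all genes.

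**Figure D5:**
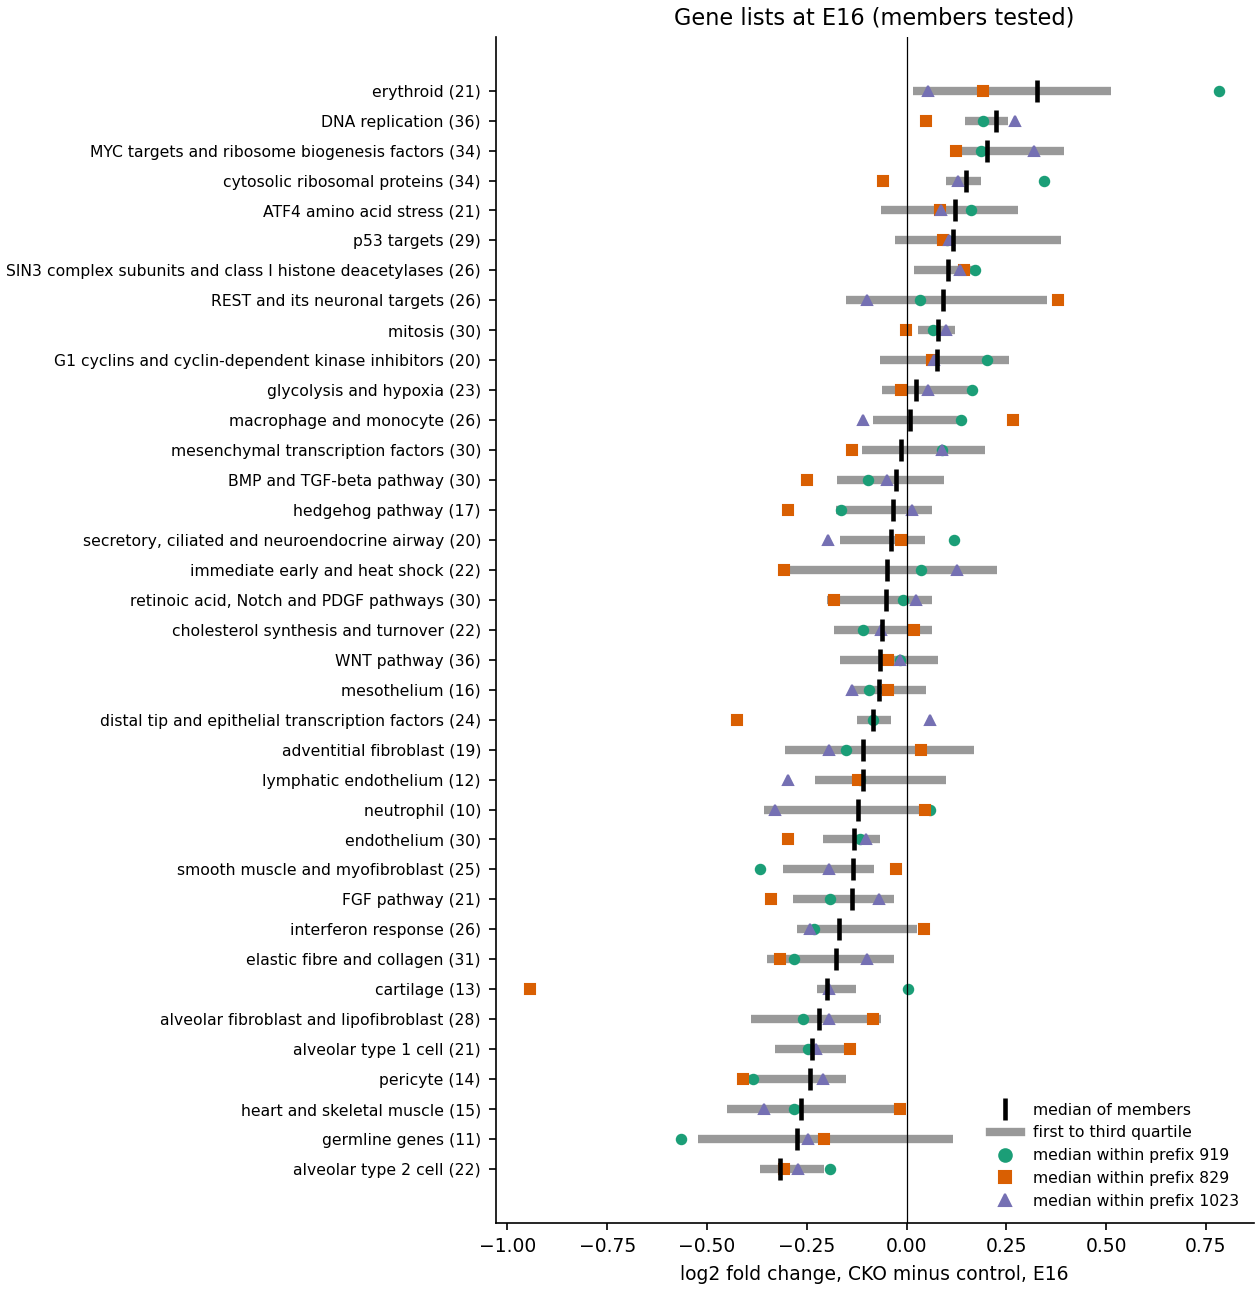
Median log2 fold change, CKO minus control, of each list with at least 10 tested members (black bars), with the quartile range (grey) and the median within each identifier prefix (coloured points). DNA replication (0.22) and MYC targets (0.20) lie right of 0 in all prefixes, and pericyte (-0.24) and alveolar type 2 (-0.32) markers left of it, while erythroid points range from 0.05 to 0.78.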

How the data were processed

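RNA from whole lungs was made into Illumina libraries, per the labels' protocols. The submitters' processing notes list RSEM 1.3.0, STAR 2.5.3a, edgeR and the build mm10, with no roles. Strandedness and gene annotation have no entry in the sources used here. The authors deposited RSEM expected counts for 51912 genes, whole numbers as deposited. RSEM shares reads between near-identical or overlapping genes by estimate. Totals were 28.01 to 36.31 M counts, so 1 CPM is 28.01 to 36.31 counts. Chi-square statistics between replicates were 20.4 or more per gene, so none was counted as a duplicate.

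The 4 CKO and 4 control E16 libraries were fitted as 1 set (R 4.3.3, edgeR 4.0.16: filterByExpr, TMM, robust quasi-likelihood test, Benjamini-Hochberg adjustment), and likewise P0 and P3; differences between stages were contrasts in 1 fit of 24 libraries. Replicates are called biological by title. Lists, members and the naming rule were chosen with earlier results of these data known, and the lists whose members are named (up to 3 each, by p) were picked with values seen. Named otherwise were Sin3a, Sin3b, the called genes, the 15 ranked genes per direction (sex-linked markers passed over), parents of copies and sex markers. Eif2s3x, Gm29650, Gm1821, Pkm and Nsdhl were named after their values were seen. Alternatives were other scalings and filters, DESeq2 1.42.0, limma-voom (limma 3.58.1), blocks, an Xist covariate and each library left out. The fit was tested on simulated counts. Log2 CPM used a prior count of 2. Some results that the naming rule selects are not reported here.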

Additional observations from a re-analysis of the deposited data

Results flagged for a closer look

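In 11 of 162 groups of 4 values, the highest or lowest library lay apart from the other 3 by more than Dixon's 95% critical value, which chance passes in about 1 in 20 groups. Shisa3 was 6.88 CPM in CKO replicate 4, against 15.5 to 17.0 CPM in the other CKO libraries. Kyat3 was 13.2 CPM in the same library, against 19.9 to 20.8 CPM. The mean of the pericyte list was 4.96 log2 CPM there, against 4.59 to 4.63 in the other CKO libraries. The interferon list was lowest in CKO replicate 3, at 1.87 log2 CPM, against 2.15 to 2.196 in the other CKO libraries. Heart and skeletal muscle markers were highest in CKO replicate 1, at 4.24 log2 CPM, against 1.86 to 2.21 in the others. The erythroid list was highest among controls in replicate 3, at 4.33 log2 CPM, against 3.92 to 3.97.

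The other values concern sex. Xist was 2957 CPM in control replicate 4, against 0.493 to 0.958 CPM in the other controls, its Eif2s3y level was 0 CPM, against 79.9 to 90.3 CPM, and its sex-linked list had a mean of 7.61 log2 CPM, against 4.85 to 4.97. Single counts set apart Ddx3y in CKO replicate 3 (0.0355 CPM) and Uty in CKO replicate 4 (0.0315 CPM), where the other CKO libraries had 0.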

How the results depend on the processing

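The 3 called loci passed under all 20 alternatives run, but the number of calls did not. DESeq2 called 299 genes (237 higher, 62 lower), with 3249 adjusted p not given. Leaving out each library in turn gave 3 to 188 calls (0 to 120 higher, 3 to 68 lower): CKO replicate 4 left out gave 188 (120 higher, 68 lower) and control replicate 4 left out gave 10 (2 higher, 8 lower). Xist as a covariate gave 1 higher. At an unadjusted p under 0.05, leaving out a library gave 672 to 1379 higher and 427 to 1128 lower genes, the lowest without CKO replicate 2 and the highest without CKO replicate 4, and 700 and 435 when control replicate 3 was left out. The fit with all 24 libraries gave 550 higher and 394 lower, and it called 264 genes at P0 and 14 at P3, against 7 and 2 when each stage was fitted by itself. With the replicate number as a block, 700 higher and 425 lower genes were at that p and the 3 loci passed. The numbers were not taken to pair the libraries. Deviations of same-numbered CKO and control libraries correlated at -0.325 to -0.009, and those of libraries with the same prefix at -0.146 to 0.346. So few correlations cannot exclude a pairing. The log2 change of Sin3a turned to 0.019 with the prefix as a block and Xist as a covariate, and ran from -0.0797 without CKO replicate 4 to 0.0541 without CKO replicate 3. The causes were not tested.

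With 28.01 to 36.31 M counts, 1 count is worth about 0.03 CPM, so Gm9008 levels in CKO lungs carry large counting error. With 4 libraries per group, sex and genotype cannot be told apart except through control replicate 4. That library also lay far from the other controls on the first principal component.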
